A study of Homo sapiens with 6 samples.

Results

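The expression of 10 genes of matrix breakdown was followed across 3 glioma lines: the matrix metalloproteinases MMP1, MMP2, MMP3 and MMP14, their tissue inhibitors TIMP1, TIMP2 and TIMP3, and the cysteine cathepsins CTSB, CTSK and CTSL2. They were picked by name, and CTSL2 appears under its current symbol CTSV. All 10 were found among the 19775 genes measured by at least 1 probe set of a single gene, through 24 probe sets in all. Each gene was read from its brightest probe set by mean over the arrays, and the others served as a check. All 10 lay above the filter on dim probe sets, as did 14513 genes in total.

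Metalloproteinases are zinc enzymes that cut collagens and other proteins outside the cell. They are made as inactive precursors, and TIMPs block the active enzymes by binding the zinc site. Cathepsins are acid proteases of lysosomes that some tumour cells also release. In gliomas these enzymes are known mainly from studies of how tumour cells move through brain tissue.

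Total RNA was profiled on 6 one-colour arrays, 2 per group. U87MGR is the derivative that the labels describe as highly invasive, with the arrays titled U87MGR2 and U87MGR3. U87MGL is the non-invasive derivative, with U87MGL2 and U87MGL3. U87MG, an established human glioblastoma line bought from ATCC, is the parent. Both derivatives were enriched through 4 rounds of injection into the left striatum of nude mice (BALB/c nu/nu, 6 weeks old), each followed by dissociation of the tumour-bearing brain and return to culture. All lines were grown in DMEM with 10% serum, and no drug or gene change is named for any of them. The sources do not state whether the lines are clones or what the numbers 2 and 3 mark. Replicates are termed biological in the titles, and p-values here measure the spread between such arrays alone.

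The arrays had medians of 5.29 to 5.35 log2 units. Control RNA spiked into the samples before labelling or hybridisation parted them into 3 sets, called spike-in batches here, that cross the groups; the labels name no batch. U87MGR replicate 1 fell together with the U87MGL pair, U87MGR replicate 2 with U87MG replicate 1, and U87MG replicate 2 stood alone. The mean of the poly(A) controls among them was 8.03 in U87MGR replicate 2 and 8.11 and 8.43 in U87MG, against 6.79 in U87MGR replicate 1 and 7.01 and 6.83 in U87MGL. A ribosomal RNA probe set read 12.5 in U87MG replicate 2 and 6.00 to 7.98 elsewhere, while GAPDH read higher at its 3′ than its 5′ end by 0.24 in U87MGR replicate 2 and by 0.03 to 0.07 elsewhere. The same difference for actin was 0.28 and 0.25 in U87MGR, 0.39 and 0.28 in U87MGL, and -0.0074 and 0.22 in U87MG. Of the astrocyte and glioma markers, VIM, CD44, NES, SOX2, GFAP and ALDH1L1 passed the filter, with GFAP at only 5.21 to 5.45, and AQP4 and S100B lay below it. The microglial and macrophage markers PTPRC, CX3CR1, P2RY12 and TYROBP were also below it. AIF1, CSF1R, CD14, ITGAM and TREM2 passed, with CSF1R the highest of them at 7.31 to 7.85. Of 6 endothelial markers only CDH5 was below, and PECAM1, VWF, KDR, TEK and CLDN5 passed. In bulk RNA, fewer cells with a transcript and less of it per cell cannot be told apart.

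**Figure D1:**
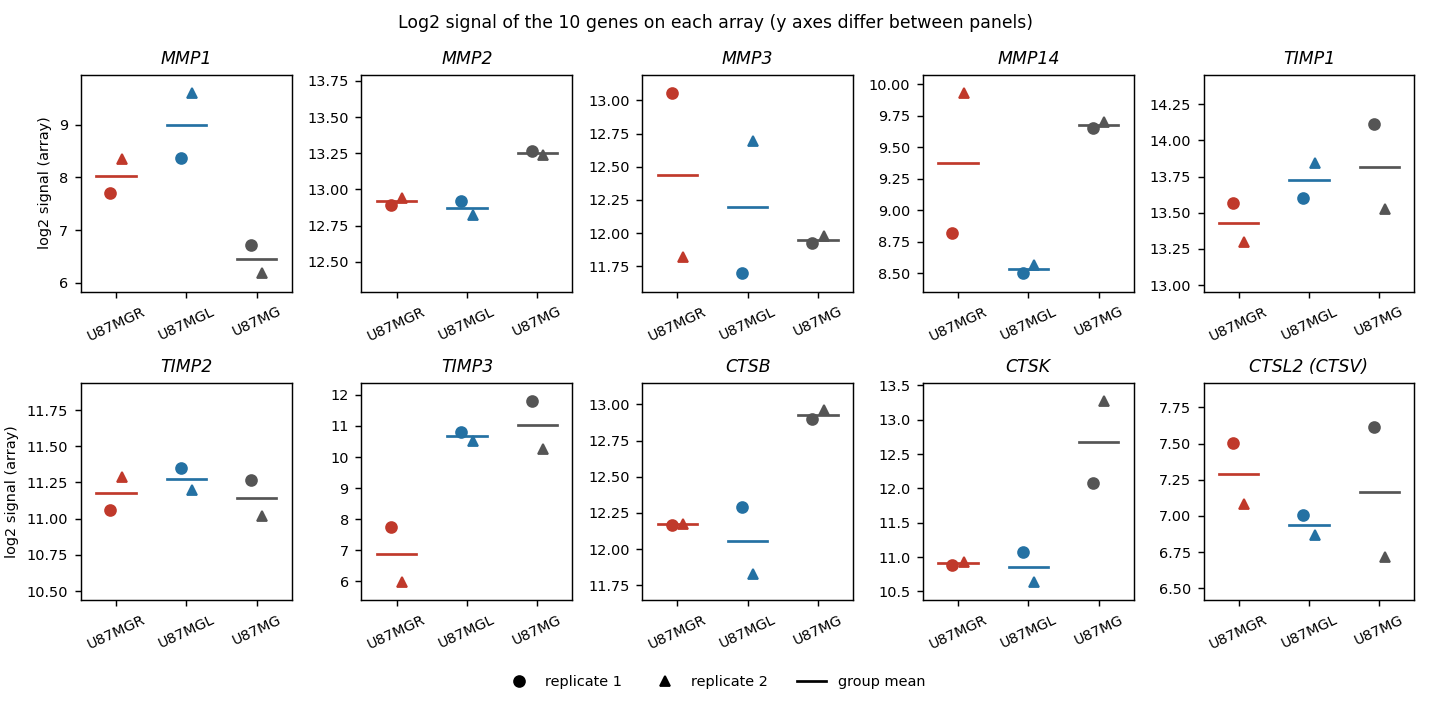
Log2 array signal of the 10 genes (y axes, each panel with its own range) in U87MGR, U87MGL and U87MG (x axis). Circles are replicate 1, triangles replicate 2 and lines the means of 2 arrays. TIMP3 sits at 7.77 and 5.98 in U87MGR and at 10.27 to 11.79 on the other 4 arrays, while MMP1 is lowest and CTSB and CTSK are highest in U87MG.

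Of the 10 genes, 3 passed the test in a derivative against the parent, on 2 arrays per line. TIMP3 was 17.8-fold lower in U87MGR than in U87MG. MMP1 was 5.81-fold higher and CTSK 3.52-fold lower in U87MGL than in U87MG. Between U87MGR and U87MGL, limma called none of the 10 at an adjusted p under 0.05, where 0.158% of all genes were called; at an unadjusted p under 0.05 it was 2 of 10, TIMP3 and MMP14, against 8.85% of all genes. Against U87MG, 1 of 10 was called in U87MGR (3.3% of all genes) and 2 of 10 in U87MGL (4.82% of all genes). At an unadjusted p under 0.05 those counts were 4 of 10 (20.8% of all genes) and 5 of 10 (23.3% of all genes). Taken as a median over the 10, U87MGR differed from U87MGL by 0.05 log2 units and from the parent by -0.32, and U87MGL differed from the parent by -0.30. Medians over all genes were 0.0020, -0.0060 and -0.017. Arrays of the groups compared did not overlap for 5 of the 10 genes in each comparison, close to the 46.6%, 48.4% and 56.4% of all genes. The last 2 comparisons share the U87MG arrays.

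**Figure D2:**
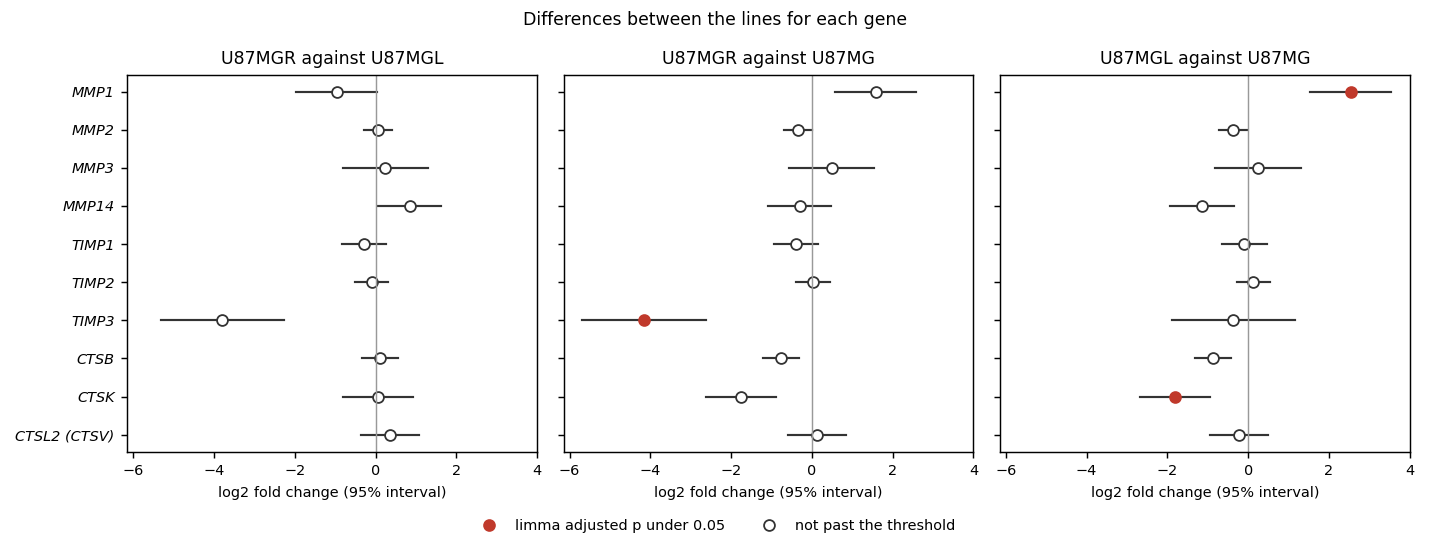
Log2 fold change of each gene (x axes) with its 95% interval from limma, in 3 comparisons. Filled points passed an adjusted p of 0.05: TIMP3 at -4.16 for U87MGR against U87MG, and MMP1 at 2.54 and CTSK at -1.82 for U87MGL against U87MG. TIMP3 at -3.79 for U87MGR against U87MGL did not pass.

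MMP1, the interstitial collagenase, cuts fibrillar collagens such as type I. Its log2 signal was 7.70 and 8.36 in U87MGR, 8.37 and 9.60 in U87MGL, and 6.72 and 6.18 in U87MG. Every derivative array lay above both parental ones, and both U87MGL arrays above both U87MGR arrays, although narrowly. MMP1 rose in U87MGL by 2.54 log2 units over U87MG (SE 0.42, limma adjusted p = 0.0255). U87MGR differed from U87MG by 1.58 (SE 0.42, 95% interval 0.58 to 2.58, limma adjusted p = 0.0926) and from U87MGL by -0.96 (interval -1.96 to 0.04, limma adjusted p = 0.588), and neither passed. The gene has 1 probe set, so no second reading was at hand.

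The MMP1 call for U87MGL held without U87MGL replicate 1 or U87MG replicate 1 and was lost without any of the other 4 arrays. Without U87MG replicate 2 the difference was 2.27 (limma adjusted p = 0.0857), without U87MGL replicate 2 it was 1.92 (limma adjusted p = 0.107), and without either U87MGR array, which only inform the spread, the limma adjusted p was 0.0598. U87MG replicate 2, the array with the high ribosomal RNA reading, gave the lowest MMP1 value, 6.18. The part of that reading in the MMP1 values was not tested. No batch holds both U87MGL and U87MG. A fit with the batches as a block, which links them through U87MGR, gave 3.19 with 2 batches (limma adjusted p = 0.38) and 2.92 with 3, where U87MG replicate 2 is alone in its batch and adds nothing (limma adjusted p = 0.234).

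MMP3, or stromelysin-1, degrades proteoglycans and can activate other MMP precursors. Its gene lies on chromosome 11, as MMP1 does. MMP3 read 13.06 and 11.82 in U87MGR, 11.70 and 12.69 in U87MGL, and 11.92 and 11.98 in U87MG. The replicates of each derivative were far apart (SD 0.88 in U87MGR and 0.70 in U87MGL), while those of U87MG nearly coincided (SD 0.04). High values fell on U87MGR replicate 1 and U87MGL replicate 2, which carry different line numbers. U87MGR differed by 0.24 from U87MGL and by 0.49 from U87MG, and U87MGL by 0.24 from U87MG (SE 0.45, limma adjusted p of 0.91, 0.583 and 0.779). With U87MGR replicate 1 left out, the first became -0.38 and the second -0.13. Intervals of up to 1.54 on the higher side leave room for sizeable differences.

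MMP2, the gelatinase A that cleaves type IV collagen, varied least between replicates. Its brightest probe set gave 12.89 and 12.94 in U87MGR, 12.92 and 12.82 in U87MGL, and 13.26 and 13.24 in U87MG. All derivative arrays lay below both parental ones, with replicate SDs of 0.02 to 0.07. The differences from U87MG, -0.33 in U87MGR and -0.38 in U87MGL (SE 0.15), did not pass (limma adjusted p = 0.259 and 0.184). U87MGR and U87MGL differed by 0.05, with an interval of -0.30 to 0.39. A dimmer MMP2 probe set gave 0.28 for U87MGR against U87MG, the opposite direction, at 5.08 and 5.27 in U87MGR and 5.01 and 4.79 in U87MG. The remaining MMP2 probe set lay under the filter.

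MMP14 is the membrane-anchored metalloproteinase that, together with TIMP2, activates the MMP2 precursor at the cell surface. It read 8.82 and 9.93 in U87MGR, 8.50 and 8.57 in U87MGL, and 9.66 and 9.70 in U87MG. The high arrays were both of U87MG and U87MGR replicate 2, and the low ones both of U87MGL and U87MGR replicate 1. All 4 probe sets of MMP14 gave that division, with U87MGR replicate 2 at 9.10, 9.17 and 8.56 and U87MGR replicate 1 at 8.32, 7.90 and 7.61 in the 3 dimmer ones.

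The same 3 arrays had the higher poly(A) controls, so the high and low arrays of MMP14 followed the spike-in batches. In U87MGR they also followed the line numbers, with U87MGR2 low and U87MGR3 high. Batch and line number cannot be told apart there. The part of the batches in the MMP14 differences was not tested. In the brightest probe set, U87MGR replicate 1 was higher by 0.28 within the batch of both U87MGL arrays. U87MGR replicate 2 was likewise higher by 0.28 within the batch of U87MG replicate 1. The 3 dimmer probe sets were mixed in that second batch. U87MGR replicate 2 read 9.10, 9.17 and 8.56 there, and U87MG replicate 1 read 8.87, 9.16 and 8.76. Over all arrays U87MGR differed from U87MGL by 0.84 (interval 0.06 to 1.62, limma adjusted p = 0.534) and from U87MG by -0.30 (limma adjusted p = 0.651). U87MGL differed from U87MG by -1.15 (SE 0.33, limma adjusted p = 0.10), or by -0.78 to -1.67 over the 4 probe sets. With only the 4 arrays of these lines the value was the same and the limma adjusted p 0.0436. With the spike-in batches as a block of 2 the U87MGL difference was -0.029, and with 3 it was -0.0072. Those fits link U87MGL and U87MG only through the 2 U87MGR arrays, which they take as alike apart from batch.

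TIMP3 is the inhibitor that binds to the extracellular matrix and also blocks ADAM and ADAMTS enzymes. Its promoter is printed because TIMP3 showed the largest differences among the 10 genes, and that of MMP14 for comparison. Both come from the RefSeq promoter table (GRCh38.p14), which covers 4 of the 10 genes and reaches from 250 bases before to 50 after the start of the gene. TIMP3 lies at chr22:32801455-32801754 and MMP14 at chr14:22836335-22836634, both on the plus strand and written 5′ to 3′. Capitals mark GC boxes, matches to GGGCGG on either strand.
TIMP3: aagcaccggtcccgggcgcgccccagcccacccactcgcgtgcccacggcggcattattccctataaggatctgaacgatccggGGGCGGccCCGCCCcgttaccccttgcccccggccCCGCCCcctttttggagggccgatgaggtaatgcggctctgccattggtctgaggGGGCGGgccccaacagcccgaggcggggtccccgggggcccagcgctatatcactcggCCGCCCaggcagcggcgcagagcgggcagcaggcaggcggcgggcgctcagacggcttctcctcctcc
MMP14: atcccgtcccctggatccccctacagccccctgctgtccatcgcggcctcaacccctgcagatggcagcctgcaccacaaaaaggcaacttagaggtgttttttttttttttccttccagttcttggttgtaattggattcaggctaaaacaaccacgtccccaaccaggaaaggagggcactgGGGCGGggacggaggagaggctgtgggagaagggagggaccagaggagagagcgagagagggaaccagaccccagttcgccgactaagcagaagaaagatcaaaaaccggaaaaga
The TIMP3 window held 5 GC boxes and 31 CpG dinucleotides, and the MMP14 window held 1 and 10. At least 1 GC box occurred in 45% of 35116 promoters of this length and 5 or more in 5.14%. At least 31 CpG were present in 20.7% of them. TIMP1 and CTSV had 2 GC boxes each. None of the 4 windows held the AP-1 element TGAGTCA, found in 4.95% of promoters; these letters are its only form searched, on both strands.

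TIMP3 stood at 7.77 and 5.98 in U87MGR, at 10.81 and 10.51 in U87MGL, and at 11.79 and 10.27 in U87MG. Both U87MGR arrays lay well under the other 4, and U87MGL and U87MG overlapped. TIMP3 fell by 4.16 in U87MGR against U87MG (SE 0.65, interval -5.69 to -2.63, limma adjusted p = 0.0281), the 5th largest difference among 14513 genes. The difference from U87MGL was -3.79 (SE 0.65, interval -5.32 to -2.26, limma adjusted p = 0.132), the 4th largest of that comparison, and did not pass. U87MGL and U87MG differed by -0.37 (interval -1.89 to 1.16, limma adjusted p = 0.771), or by -2.92 with the 3 spike-in batches as a block.

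The spread within U87MGR and U87MG was wide, with SDs of 1.27 and 1.08 against 0.21 in U87MGL. U87MGR replicate 2 gave the lowest value, and it is also the array with the larger GAPDH 3′ minus 5′ difference, while its actin difference of 0.25 lay among those of the other arrays; the part of RNA quality in this was not tested. Without it the differences were -3.26 from U87MG (limma adjusted p = 0.152) and -2.90 from U87MGL (0.754), and without U87MGR replicate 1 they were -5.05 (0.0735) and -4.69 (0.156). Within the spike-in batches TIMP3 differed by -5.81 from U87MG and by -2.90 from U87MGL. With the batches as a block in limma, the difference from U87MG was -5.05 with 2 and -5.81 with 3. Neither is a separate check. The first is the same as the fit without U87MGR replicate 1. The second, like the value within a batch, sets only U87MGR replicate 2 against U87MG replicate 1. The 3 other TIMP3 probe sets gave -2.97 to -4.04 against U87MG and -2.60 to -3.63 against U87MGL. When each probe set was tested as a row of its own, all 4 were called against U87MG in limma (adjusted p of 0.0378 to 0.0496) and none against U87MGL (0.235 to 0.272).

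**Figure D3:**
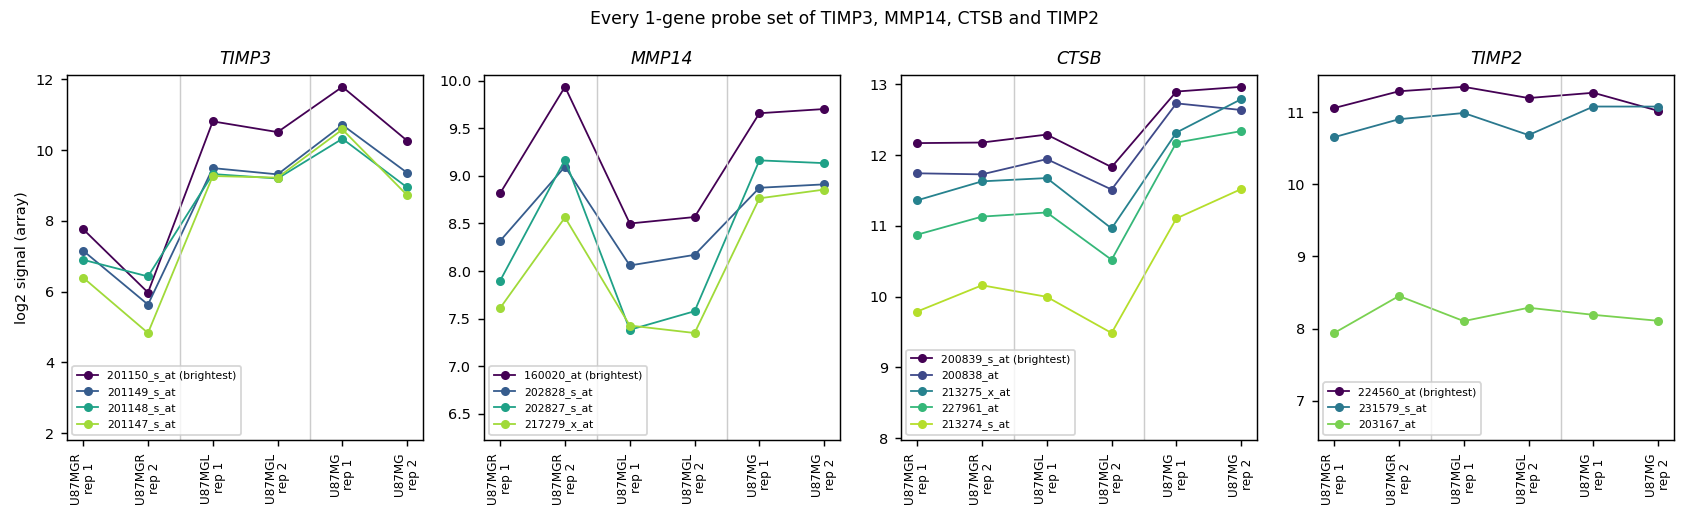
Log2 array signal (y axes) of each single-gene probe set of TIMP3, MMP14, CTSB and TIMP2 on the 6 arrays (x axes). Each line joins the readings of 1 probe set. The 4 TIMP3 probe sets are lowest on both U87MGR arrays, the 4 MMP14 probe sets are high on U87MGR replicate 2 and both U87MG arrays, and the 5 CTSB probe sets are highest in U87MG.

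TIMP1 and TIMP2, soluble inhibitors of most MMPs, showed no such difference. TIMP1 read 13.56 and 13.30 in U87MGR, 13.60 and 13.84 in U87MGL, and 14.11 and 13.53 in U87MG. The U87MGR arrays lay just below those of U87MGL, and U87MG overlapped both. TIMP1 differed by -0.29 between U87MGR and U87MGL, with an interval of -0.84 to 0.26, and by -0.39 between U87MGR and U87MG, with an interval of -0.94 to 0.16 (limma adjusted p = 0.761 and 0.395). TIMP2 read 11.06 and 11.29 in U87MGR, 11.35 and 11.20 in U87MGL, and 11.27 and 11.02 in U87MG. The 3 groups overlapped. Its differences of -0.10, 0.03 and 0.13 all had intervals between -0.51 and 0.54 (limma adjusted p of 0.697 or more). Differences in TIMP2 as large as that of TIMP3 lie outside those intervals.

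CTSK, a collagen-degrading cathepsin best known from osteoclasts, was highest in the parent. It read 10.88 and 10.93 in U87MGR, 11.08 and 10.63 in U87MGL, and 12.08 and 13.27 in U87MG. Both parental arrays lay above all derivative arrays, and the derivatives overlapped. CTSK fell by 1.82 in U87MGL against U87MG (SE 0.37, limma adjusted p = 0.0418). In U87MGR the difference was -1.76 (SE 0.37, interval -2.63 to -0.90, limma adjusted p = 0.0529), just outside the threshold. U87MGR and U87MGL differed by 0.05 (interval -0.82 to 0.92, limma adjusted p = 0.981).

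U87MG replicate 2, the array with the high ribosomal RNA reading, also gave the highest CTSK value. Without it the CTSK differences from U87MG were -1.22 in U87MGL (limma adjusted p = 0.0549) and -1.17 in U87MGR (0.0629). Without U87MG replicate 1 they were -2.41 (0.0112) and -2.36 (0.0193). The U87MGL call was also lost in limma without U87MGL replicate 1 (adjusted p = 0.111), U87MGL replicate 2 (0.241) or either U87MGR array (0.0918). The part of the ribosomal RNA reading in the CTSK values was not tested. Within the batch that holds U87MGR replicate 2 and U87MG replicate 1 the CTSK difference was -1.15. With the batches as a block, U87MGL differed by -1.77 with 2 (limma adjusted p = 0.588) and by -1.18 with 3 (limma adjusted p = 0.255).

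CTSB, an abundant lysosomal cathepsin, had the same order of groups. Its brightest probe set gave 12.17 and 12.18 in U87MGR, 12.29 and 11.83 in U87MGL, and 12.90 and 12.96 in U87MG. The parental arrays were above all others, and the U87MGR arrays lay between those of U87MGL. Differences from U87MG were -0.76 in U87MGR (SE 0.19, limma adjusted p = 0.0805) and -0.87 in U87MGL (SE 0.19, limma adjusted p = 0.0506), neither past the threshold. The U87MGL difference passed in limma under 4 other settings: a 60th percentile filter (adjusted p = 0.0439), quantile normalization (0.0496), the mean of the probe sets (0.0287) and trend and robust priors (0.0277). The U87MGR one passed under the last 2 (0.0481 and 0.0483). Counting single probe sets, 6 of 19 alternatives with a test passed for U87MGL and 2 of 19 for U87MGR. The U87MGL difference did not pass with only the 4 arrays of these lines (limma adjusted p = 0.0958) or with 2 batches as a block (0.59). With 1 array left out it ran from -1.10 to -0.64. The other 4 CTSB probe sets gave larger differences, down to -1.34 in U87MGR and -1.57 in U87MGL. Tested as rows of their own, 2 of 5 CTSB probe sets were called for U87MGL (limma adjusted p = 0.0439 and 0.0368) and none for U87MGR (0.06 to 0.116). The derivatives differed from each other by 0.11 (interval -0.33 to 0.56).

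CTSV, a close relative of cathepsin L known from thymus and testis, read 7.50 and 7.08 in U87MGR, 7.00 and 6.87 in U87MGL, and 7.62 and 6.72 in U87MG. U87MGR lay above U87MGL on both arrays, and U87MG spanned them all. The differences were 0.36, 0.12 and -0.23 (SE 0.30, limma adjusted p of 0.778, 0.86 and 0.689).

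Markers of other cells and states also differed between the lines. Of 6 pericyte and fibroblast markers, PDGFRB and DCN fell in both derivatives against U87MG in limma and none rose past the threshold. ACTA2 and RGS5 ran the other way in U87MGR, by 0.56 and 0.58 against U87MG (limma adjusted p = 0.142 and 0.287). Their means were also higher in U87MGL than in U87MG. ACTA2 read 9.42 and 9.64 in U87MGL and 9.11 and 9.35 in U87MG. RGS5 read 6.14 and 6.73 in U87MGL and 6.49 and 5.86 in U87MG. PDGFRB was at 7.57 and 7.33 in U87MGR, 8.01 and 7.66 in U87MGL, and 8.78 and 8.82 in U87MG. The log2 of the summed linear signal of those 6 markers ran from 11.36 to 11.99 in U87MGR, 12.34 to 12.65 in U87MGL and 12.43 to 12.69 in U87MG. COL1A1 was the brightest of the 6 on every array, so it weighs most in that sum. Of 4 proliferation markers, 2 rose in U87MGR and 3 in U87MGL, with MKI67 at 10.20 and 10.18 in U87MGR, 10.07 and 10.30 in U87MGL, and 8.46 and 8.65 in U87MG. The part of either list in the values of TIMP3, CTSK, CTSB or MMP1 was not tested. Of 10 microglial and macrophage markers, 9 had a single-gene probe set. Of these 9, 5 passed the filter and none was called in limma (0 at an unadjusted p under 0.05 too). The log2 of the summed linear signal of these 9 was 8.86 and 8.87 in U87MGR, 8.85 in U87MGL, and 8.80 and 8.81 in U87MG.

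Relatives of these genes were set beside them. Of 10 further MMPs that passed the filter, limma called none in any comparison; at an unadjusted p under 0.05 there were 0 between the derivatives, and 1, higher, in each derivative against the parent. MMP9, the other gelatinase, was at 5.51 and 5.12 in U87MGR, 5.33 and 5.30 in U87MGL, and 5.92 and 5.34 in U87MG. The largest differences in each comparison were in MMP28 (0.30, U87MGR against U87MGL), MMP24 (0.46, U87MGR against U87MG) and MMP12 (0.70, U87MGL against U87MG). Of 4 other metalloproteinase inhibitors none passed in limma (1, 2 and 2 at an unadjusted p under 0.05), and A2M, a broad protease inhibitor, differed by 0.51 between U87MGR and U87MGL. A2M was also near the filter, at 4.97 and 5.48 in U87MGR and 4.67 and 4.76 in U87MGL. TFPI2, a Kunitz-type protease inhibitor of the matrix, differed from U87MG by 0.87 in U87MGR and 0.86 in U87MGL (limma adjusted p = 0.0783 and 0.0708). Of 9 ADAM proteases none passed in limma either (1, 0 and 1 at an unadjusted p under 0.05), with ADAM12 at -0.57 for U87MGR against U87MGL and 0.82 for U87MGL against U87MG, and ADAM10 at -0.41 for U87MGR against U87MG.

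**Figure D4:**
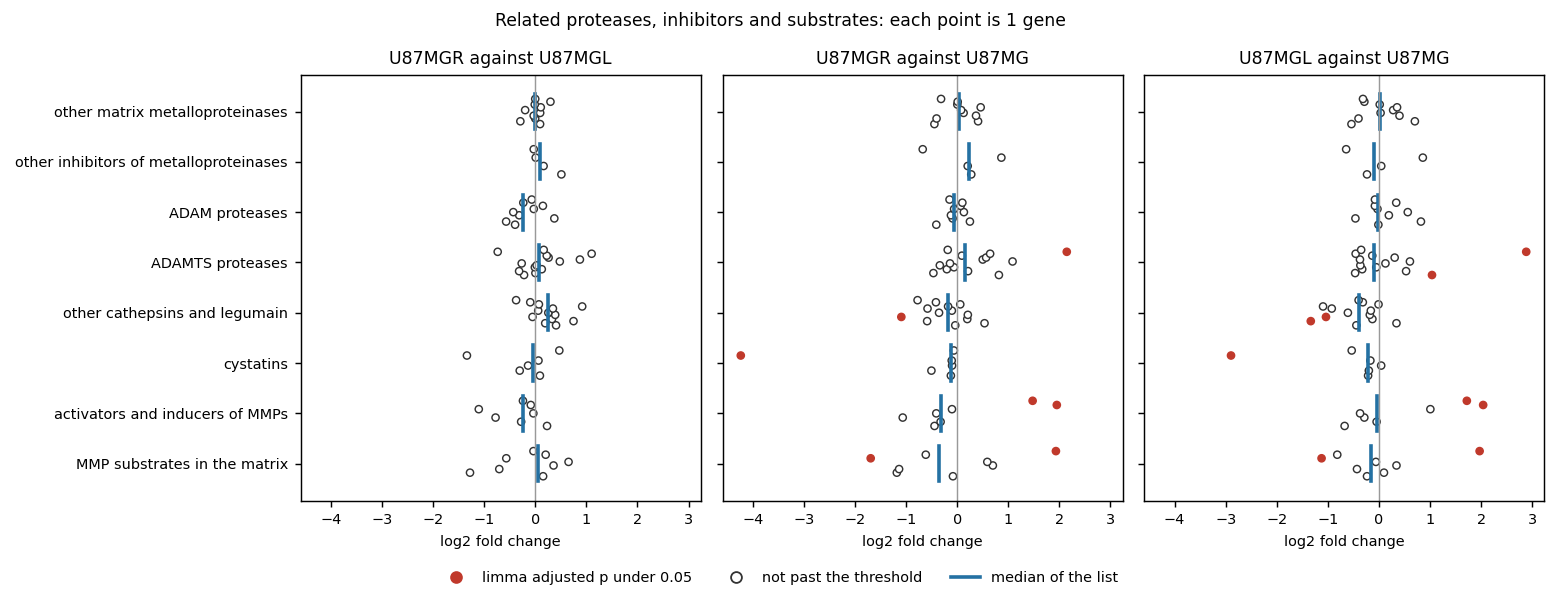
Log2 fold change (x axes) of each tested gene in 8 lists of related proteases, inhibitors and substrates, for 3 comparisons. Filled points passed a limma adjusted p of 0.05 and vertical bars are medians. None is filled for U87MGR against U87MGL, and the outermost points against U87MG are CSTA on the left and ADAMTS6, PLAU, PLAUR and VCAN on the right.

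Among 14 ADAMTS proteases, ADAMTS6 rose in both derivatives, by 2.15 in U87MGR and 2.88 in U87MGL over U87MG (SE 0.37, limma adjusted p = 0.0357 and 0.0148). Its signal was 7.01 and 7.34 in U87MGR, 7.58 and 8.25 in U87MGL, and 5.56 and 4.50 in U87MG. ADAMTS1, an aggrecan- and versican-cleaving enzyme, rose by 1.04 in U87MGL (limma adjusted p = 0.0283) and differed by 0.82 in U87MGR (0.0611). No ADAMTS gene fell past the threshold. Between U87MGR and U87MGL the largest ADAMTS difference was 1.10, in ADAMTS5.

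Of 13 other cathepsins and legumain, CTSF fell in both derivatives, with -1.09 in U87MGR and -1.04 in U87MGL (limma adjusted p = 0.0331 and 0.0284), and none rose. CTSD, the lysosomal aspartic protease, fell by 1.34 in U87MGL (limma adjusted p = 0.0254) and differed by -0.59 in U87MGR (0.195). It read 9.75 and 10.19 in U87MGR, 9.41 and 9.04 in U87MGL, and 10.68 and 10.43 in U87MG. CTSS differed by 0.92 between U87MGR and U87MGL (limma adjusted p = 0.407). The list had a median of -0.18 in U87MGR and -0.40 in U87MGL against U87MG.

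Of 6 cystatins, the cysteine protease inhibitors, CSTA fell in both derivatives, with -4.24 in U87MGR and -2.90 in U87MGL against U87MG (limma adjusted p = 0.0125 and 0.0175) and none rose. CSTA read 6.21 and 4.97 in U87MGR, 6.91 and 6.95 in U87MGL, and 10.15 and 9.50 in U87MG, and differed by -1.34 between U87MGR and U87MGL. Of 7 activators and inducers of MMPs, urokinase (PLAU) and its receptor PLAUR rose in both derivatives, PLAU by 1.95 in U87MGR and 2.04 in U87MGL and PLAUR by 1.48 and 1.72. PLAT, the tissue plasminogen activator, differed by -1.11 between U87MGR and U87MGL. Of 8 matrix substrates, the proteoglycan VCAN rose in both, by 1.93 in U87MGR and 1.97 in U87MGL, and DCN fell in both, with -1.69 and -1.12. COL1A1, a chain of the type I collagen that MMP1 cuts, read 11.27 and 10.33 in U87MGR, 12.29 and 11.87 in U87MGL, and 12.24 and 11.72 in U87MG; it differed by -1.28 between U87MGR and U87MGL (limma adjusted p = 0.305).

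The genes with the most similar pattern were found for the 3 called members as those at the smallest Euclidean distance between profiles of 6 arrays, each less its own mean. Nearest to TIMP3 were HMGN3, a nucleosome-binding protein, at 1.45, RNF149 at 1.98 and ENPP5 at 2.04, where the TIMP3 profile itself has a length of 4.90. HMGN3 read 6.52 and 3.38 in U87MGR, 8.78 and 8.71 in U87MGL, and 8.78 and 7.62 in U87MG. Nearest to MMP1 were DOCK4, an exchange factor for Rac, at 0.51, the collagen IV chain COL4A6 at 0.68 and ADAMTS6 at 0.82, with a length of 2.77. Nearest to CTSK were PKD1L2 at 0.22, the complement protease C1R at 0.48 and the glypican GPC6 at 0.62, with a length of 2.25. With 6 arrays in 3 groups, many genes share a pattern of high and low lines, and these distances describe these arrays alone.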

How the data were processed

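Total RNA of 6 cell cultures was measured on one-colour arrays with 54675 probe sets. The authors deposited log2 signals, here 2.38 to 14.6, per the file headers and values; the summarisation and normalization are not given in the sources used here. Array number, 2 per group, limits the precision. Groups came from the sample labels. The platform annotation gave 1 gene symbol for 41097 probe sets, several for 1801 and none for 11777. The brightest 1-symbol probe set stood for each gene, and genes with a mean at or above the 40th percentile (4.73) were tested. limma 3.58.1 (R 4.3.3) fitted a mean per group to all 6 arrays, with 3 residual and 4.05 prior degrees of freedom and Benjamini-Hochberg adjustment over all 14513 genes at 0.05. The fit was tested on simulated data with independent noise and changes placed in U87MGR alone. That simulation held no batches, so it cannot show how the fit handles the spike-in batches here. Genes named were the 10 members; in each list and comparison, the called genes that moved most, up to 2 upward and 2 downward, or with none called the 1 furthest from 0; and the 3 nearest genes of each called member. MMP9 and the marker genes were named outside that rule, after their values were seen. The members and lists were chosen with earlier results of these data known. Alternatives changed the filter, normalization, probe set rule, priors, arrays, replicate block and spike-in batches.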

Additional observations from a re-analysis of the deposited data

How the results depend on the processing

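Across 30 gene results and 489 alternatives with a test, 426 kept their direction and side of the threshold, 19 lost a call, 15 gained one and 29 changed sign. These alternatives are not all separate, so the counts hold repeats. Leaving out either array of the line not compared gave the same fit as only the 4 arrays compared. The block of 2 batches gave the same result as leaving out U87MGR replicate 2 against U87MGL, and U87MGR replicate 1 against U87MG. Of 20 values within a spike-in batch, which have no test, 13 moved by less than the replicate SD, 4 moved by more and 3 changed sign. The causes of these changes were not tested. Genes called for U87MGR against U87MGL numbered 23, but 4 with 2 spike-in batches as a block, 0 with 3 (limma; 1169 at an unadjusted p under 0.05), 40 with no filter and 10 with a 60th percentile filter, and 3 to 34 with 1 array left out. For U87MGR against U87MG they numbered 479, but 233 with only the 4 arrays compared, 11 with 2 batches and 231 with 3, and 1 to 877 with 1 array left out. For U87MGL against U87MG they numbered 699, but 215 with 4 arrays, 0 with 2 or 3 batches (limma; 1236 and 2226 at an unadjusted p under 0.05), and 37 to 1550 with 1 array left out.

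The members called were 0, 1 and 2 in these comparisons. For U87MGR against U87MGL no left-out array changed the 0. For U87MGR against U87MG it was 0 with 2 batches, 2 with the 60th percentile filter (CTSK added) or the mean of probe sets (CTSB added), 3 with trend and robust priors, and 0 to 2 with 1 array left out. For U87MGL against U87MG it was 1 with 4 arrays (MMP14), 0 with 2 or 3 batches, 3 (CTSB added) with the 60th percentile filter, quantile normalization, the mean of probe sets or trend and robust priors, and 0 to 2 with 1 array left out.

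The sources do not say that replicate numbers pair the samples. Deviations of same-numbered arrays correlated at 0.01, 0.11 and -0.09. With 2 arrays per group, and batches that also part the U87MGR replicates, these values cannot settle whether the numbers pair the samples. With the replicate block, 28, 363 and 602 genes were called and 1, 1 and 1 members; TIMP3 was then called for U87MGR against U87MGL (limma adjusted p = 0.0323), and CTSK for U87MGL against U87MG was lost (0.0525).

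The sign changes were these. Against U87MG in U87MGR, with 2 batches, 3 batches and within a batch, MMP3 gave -0.13, -0.11 and -0.11, MMP14 0.25, 0.28 and 0.28, and CTSV -0.087, -0.54 and -0.54. In U87MGL, MMP3 gave -0.99 and -0.97 with 2 and 3 batches. TIMP2 gave -0.075 in U87MGR and -0.022 in U87MGL with the mean of probe sets, and -0.30 and -0.24 with a dimmer probe set, while a dimmer MMP2 probe set gave 0.28 in U87MGR. With 1 array left out, U87MGR against U87MGL ran from -0.38 to 0.86 for MMP3, -0.12 to 0.34 for CTSB, -0.17 to 0.27 for CTSK and -0.22 to 0.016 for TIMP2. U87MGR against U87MG ran from -0.096 to 0.16 for TIMP2, -0.33 to 0.57 for CTSV, -0.13 to 1.11 for MMP3 and -0.86 to 0.25 for MMP14. U87MGL against U87MG ran from -0.39 to 0.20 for TIMP1, -1.13 to 0.40 for TIMP3, -0.68 to 0.22 for CTSV and -0.25 to 0.74 for MMP3.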
